A study of Homo sapiens with 4 samples.

Results

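Aminoacyl-tRNA synthetases join each amino acid to its tRNA, and the expression of 36 of their genes was examined in lung adenocarcinoma (LUAD) cells after silencing of the circular RNA circZFR. The genes were taken by symbol, with the older names used in the deposited files (AARS for AARS1 and so on), from the 40205 genes listed there. They comprise 20 genes of cytosolic enzymes and 16 genes of mitochondrial enzymes, whose symbols end in 2. All 36 passed the filter on low values and were tested among 14806 genes. The rule uses symbols and no measured value, although results of these data were known when the list was made.

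A cell keeps separate sets of synthetases for the cytosol and for the mitochondrial matrix, both made from nuclear genes. The cytosolic enzymes supply translation by cytosolic ribosomes, and several of them sit together in the multisynthetase complex on the scaffold proteins AIMP1, AIMP2 and EEF1E1. The mitochondrial enzymes supply translation of the few proteins encoded by mitochondrial DNA, which are subunits of oxidative phosphorylation (OXPHOS). When amino acids run short, the transcription factor ATF4 is known to activate many cytosolic synthetase genes together with genes of amino acid synthesis and transport.

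Total RNA was sequenced from 4 libraries, 2 from cells given control siRNA (NC 1 and NC 2) and 2 from cells given an siRNA against the back-splice junction of circZFR (si-circZFR 1 and si-circZFR 2), all collected 24 h after transfection. The comparison asks which mRNAs differ once circZFR is silenced. The labels do not say whether the libraries of a group came from separate cultures, so p-values measure only the spread between these libraries. The labels name the cells H1299, whereas the design text and the article name A549, and both are established lung cancer lines grown in RPMI with fetal calf serum.

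The libraries held between 11040050 and 12816868 reads, as recovered from the deposited RPKM values (reads per kilobase of gene, relative to library size). ZFR, the host gene of circZFR, was at 25.5 and 28.8 deposited RPKM in the NC libraries and at 5.35 and 5.13 in the si-circZFR libraries. Its log2 fold change (log2FC, si-circZFR minus NC) was -2.34 (SE 0.18, limma adjusted p = 0.0125), and its si-circZFR mean was 16.9% of the NC mean. By RT-PCR, the article found no detectable effect of the siRNA on ZFR expression. A value per gene does not separate the circle from the linear mRNA, and how much of this fall lies in the linear mRNA was not tested. The limma adjusted p of ZFR was 0.0856 without NC 2, 0.0533 without si-circZFR 2 and 0.227 with no filter, with log2FC of -2.20, -2.25 and -2.34. AKR1B10, ALDH1A1 and ALDH3A1, which are abundant in A549, had at least 15929 reads each in every library. Of 4 markers of other cells, PTPRC (leukocytes) and COL1A2 (fibroblasts) had 0 reads in all 4 libraries, PECAM1 (endothelium) had 0 to 2, and COL1A1 (fibroblasts) had 61 and 42 reads in the NC libraries and 91 and 137 in the si-circZFR libraries (log2FC 0.57, limma adjusted p = 0.127). The summed level of the 4 epithelial markers was 1988 and 2697 scaled RPKM in the NC libraries and 2999.9 and 2898.5 in the si-circZFR libraries. Nearly all of it came from KRT8 (734 and 1216 against 1203 and 1232, with overlap) and KRT18 (1242 and 1472 against 1773 and 1643). CDH1 was at 11.41 and 8.63 against 21.55 and 21.16 (log2FC 1.03, limma adjusted p = 0.0544). EPCAM passed the test on 4, 4, 18 and 28 reads (log2FC 1.19, limma adjusted p = 0.0449). The EPCAM call was lost without NC 2 (adjusted p 0.109), by limma-voom (0.0694), with an RPKM filter (0.082), with no filter (0.243) and with a pseudocount of 0.1 (0.0512). The part of these markers in the values below was not tested.

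Short stretches of promoter sequence are shown first for 2 features: a DNA motif known to be bound by ATF4, which some of the synthetase genes carry, and the stretch between the starts of the histidine pair. Sequences are from RefSeq (GRCh38.p14), which gave windows of 250 bases before to 50 bases after a transcription start for 30 of the 36 genes. DARS, LARS, VARS, YARS, AARS2 and VARS2 had none. The motif TGATGNAA, the C/EBP-ATF response element, was searched on both strands. It was found in 7 of the 16 cytosolic genes and 1 of the 14 mitochondrial genes with a window, against 2.69% of 22199 windows and 3.6% of 15843 protein-coding genes. In the lines below, each stretch reads 5′ to 3′ on the strand of its gene, and the capitals mark the motif or its reverse complement.
TARS (chr5:33440956-33440985, plus strand): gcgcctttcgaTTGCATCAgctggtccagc
GARS (chr7:30594834-30594863, plus strand): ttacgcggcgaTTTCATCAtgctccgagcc
IARS (chr9:92293692-92293721, minus strand): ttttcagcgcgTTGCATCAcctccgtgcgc
CARS (chr11:3057407-3057436, minus strand): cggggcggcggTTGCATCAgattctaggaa
MARS (chr12:57488053-57488082, plus strand): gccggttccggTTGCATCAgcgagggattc
AARS (chr16:70289675-70289704, minus strand): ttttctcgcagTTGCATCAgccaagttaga
NARS (chr18:57621804-57621833, minus strand): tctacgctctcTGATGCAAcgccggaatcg
YARS2 (chr12:32756076-32756105, minus strand): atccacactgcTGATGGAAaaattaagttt

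In 5 of the 7 cytosolic genes the 8 letters were the same, TTGCATCA on the gene's own strand, and NARS carried the same letters on the other strand. GARS carried TTTCATCA. The motif began 2 to 33 bases before a start in CARS, MARS, IARS and GARS, 187 bases before it in AARS, and within the first 15 transcribed bases in TARS and NARS. A match is a description of these letters and not evidence of binding.

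HARS and HARS2, for the cytosolic and the mitochondrial histidyl-tRNA synthetase, are transcribed in opposite directions with 84 bases between their starts. Each start has the letters CCGGAAGT, the core of the motif of ETS transcription factors, a few bases before it. That motif was searched after the sequence had been seen. It occurred in 5.34% of the windows and 6.97% of the genes, in 5 of the 16 cytosolic genes and in 3 of the 14 mitochondrial genes. The capitals mark it on the strand of each gene, where it began 9 bases before the HARS start and 8 bases before the HARS2 start.
HARS (chr5:140691361-140691390, minus strand): cgactcgatagCCGGAAGTcatccttgctg
HARS2 (chr5:140691436-140691465, plus strand): tccggctcctcCCGGAAGTgccgaagctgg

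The cytosolic and the mitochondrial enzymes differed first in level. RPKM values, which are per length and so can be compared between genes, were made comparable between libraries with trimmed means of log ratios (scaled RPKM), and the mean over the 4 libraries is the level of a gene. All 20 cytosolic genes had a level above 20 scaled RPKM, with a median of 48.2, from 23.1 for HARS to 89.8 for KARS. The median of the 16 mitochondrial genes was 8.19, from 2.29 for WARS2 to 43.6 for IARS2, and 10 of them were below 10. The lowest mitochondrial gene rested on few reads, 55 to 101 a library for WARS2, against at least 721 for every cytosolic gene.

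**Figure D1:**
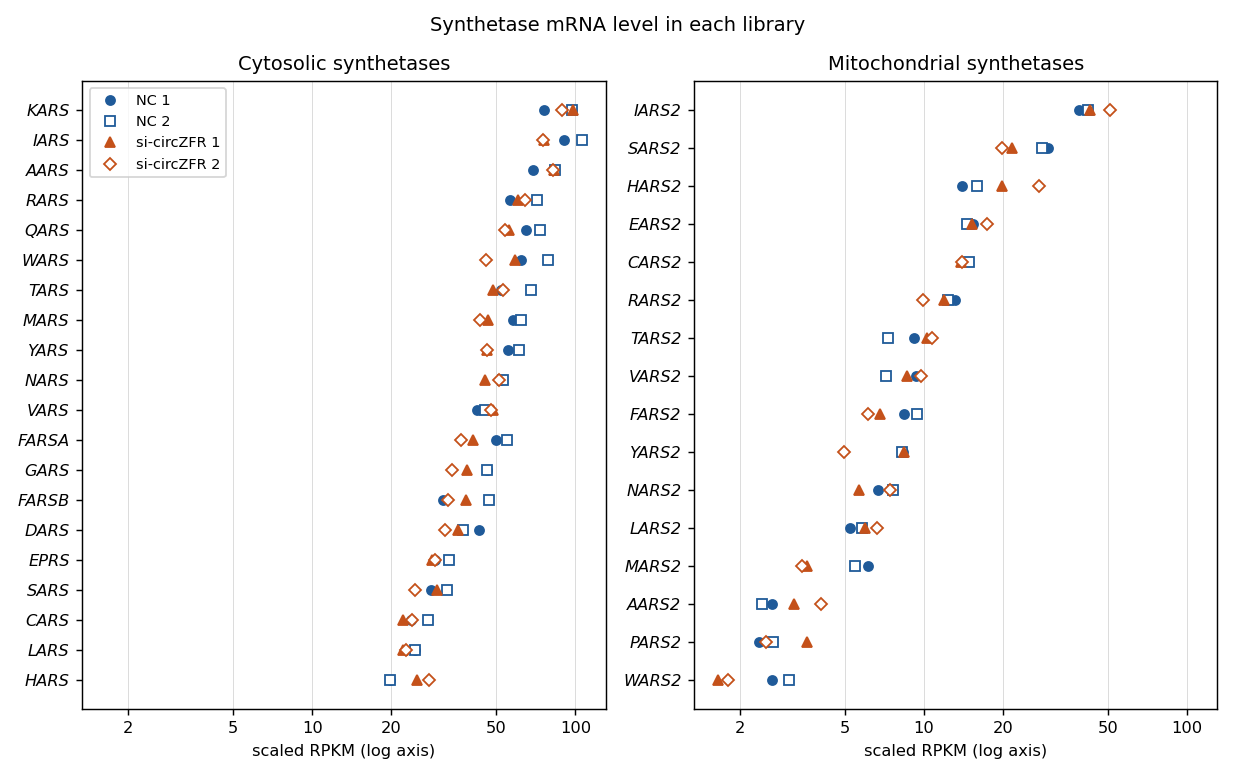
Level of each synthetase gene (scaled RPKM, log axis) in each of the 4 libraries, with the cytosolic genes on the left and the mitochondrial genes on the right, each ordered by mean level. All 20 cytosolic genes have a mean above 20, and among the mitochondrial genes IARS2 and SARS2 do.

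No synthetase gene passed the test between si-circZFR and NC. With limma on log2(scaled RPKM + 1), 0 of the 36 genes reached an adjusted p (Benjamini-Hochberg over all genes tested, FDR) under 0.05 with an absolute log2FC over 1, where 175 of 14806 genes (1.18%) did, and limma-voom on the recovered reads also called 0 of the 36. The smallest FDR was 0.126, for MARS2. At an unadjusted p under 0.05 there were 7 of the 36, HARS and HARS2 with higher values and FARSA, MARS, MARS2, SARS2 and WARS2 with lower values in si-circZFR, a share close to the 22.5% of all genes. That count moved when any 1 library was left out, and the count over all genes at the same threshold moved in the same direction each time. Its changes are therefore not read as a trait of the synthetase genes. The count of all genes called also moved with the library left out. Fold changes on this scale understate the change of low genes.

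Most cytosolic genes had lower values after silencing, none past the test. Their median log2FC was -0.15, with 16 genes below 0 and 4 above, whereas the median of all genes was 0.0034. In 10 of the 20 genes (DARS, FARSA, GARS, IARS, LARS, MARS, NARS, QARS, WARS and YARS) each silenced library had a lower value than each control library. In 2 (HARS and VARS) each had a higher one. Over all genes the shares were 28.1% and 27.8%. The groups overlapped for the other 8. Relative to its mean over the libraries, the median cytosolic gene stood at 0.01 (log2) in NC 1, 0.18 in NC 2, -0.08 in si-circZFR 1 and -0.11 in si-circZFR 2, so that NC 2 lay farthest out. Without NC 2 the median log2FC was -0.08, and without NC 1 it was -0.26. Without scaling it was 0.03, with 9 genes below 0, while the median of all genes was then 0.145, which left the cytosolic genes -0.11 relative to it.

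**Figure D2:**
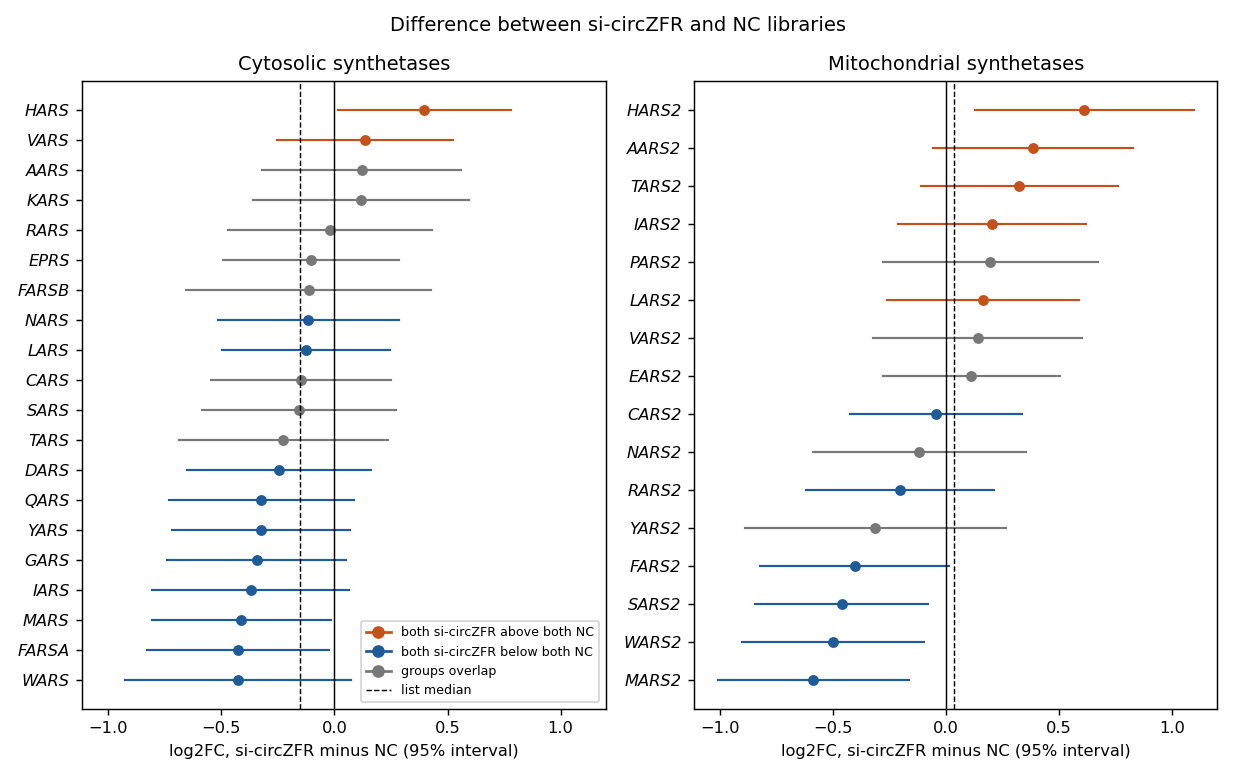
Log2FC of each synthetase gene (si-circZFR minus NC, with its 95% interval from limma), with the cytosolic genes on the left and the mitochondrial genes on the right. The dashed lines mark the list medians of -0.15 and 0.03, and no gene passed the test.

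The 20 cytosolic genes together came to 974.0 and 1122 scaled RPKM in the NC libraries and to 947.6 and 915.4 in the si-circZFR libraries, or 1048 ± 104 against 931.5 ± 22.8 (SD, n = 2 each), 88.9% of NC. The 16 mitochondrial genes came to 185.7 and 186.9 scaled RPKM against 182.9 and 196.6, or 101.8% of NC. The sum over all genes tested was also lower in both si-circZFR libraries, 519040 and 641550 scaled RPKM in NC against 463550 and 392880. A lower sum was thus not particular to the cytosolic genes. The ratio of the cytosolic to the mitochondrial sum does not depend on the scaling. It was 5.24 and 6.00 in the NC libraries and 5.18 and 4.66 in the si-circZFR libraries, so the groups did not overlap, although NC 1 and si-circZFR 1 lay close together. As deposited, without scaling, the cytosolic sum was 956.3 and 1000.3 RPKM in NC against 971.0 and 1020.5 in si-circZFR, and its direction turned. In bulk RNA, fewer cells expressing a gene and less mRNA per cell cannot be told apart.

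Of the 8 enzymes of the multisynthetase complex, 7 had a log2FC below 0. Their median log2FC was -0.19, the groups separated downward for 5 of them (DARS, IARS, LARS, MARS and QARS) and upward for none, beside 28.1% and 27.8% of all genes. MARS charges both the initiator and the elongator methionine tRNA. It was at 57.9 and 62.2 scaled RPKM in the NC libraries and at 46.5 and 43.3 in the si-circZFR libraries, with no overlap (log2FC -0.41, SE 0.17, limma FDR 0.208). IARS, the isoleucine enzyme, was at 90.4 and 105.8 scaled RPKM in the NC libraries and at 75.8 and 75.0 in the si-circZFR libraries (log2FC -0.37, limma FDR 0.28). IARS had the most reads of all 36 genes, 4125 to 5696 a library.

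The other enzymes of the complex differed less. QARS, for glutamine, had a log2FC of -0.32, DARS, for aspartate, -0.25, and LARS, which charges leucine tRNA and is also known as a leucine sensor upstream of mTORC1, -0.13. EPRS, a single protein that charges both glutamate and proline tRNAs, had -0.10 and RARS, for arginine, -0.02. KARS, which makes both the cytosolic and the mitochondrial lysine enzyme by alternative splicing, was the most abundant of the 36. It was at 75.8 and 96.9 scaled RPKM in the NC libraries and at 97.5 and 88.8 in the si-circZFR libraries, so the groups overlapped (log2FC 0.12, SE 0.20, limma FDR 0.764).

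Among the 12 cytosolic genes outside the complex, the median log2FC was -0.15, with 9 below 0. FARSA and FARSB are the alpha and beta subunits of 1 enzyme, phenylalanyl-tRNA synthetase. FARSA was at 49.7 and 55.1 scaled RPKM in the NC libraries and at 40.7 and 36.9 in the si-circZFR libraries (log2FC -0.42, SE 0.17, limma FDR 0.202). FARSB was at 31.5 and 47.0 against 38.5 and 32.7, with overlap, and NC 2 was 1.49 times NC 1 for this gene (log2FC -0.11, SE 0.23). FARSA thus separated the groups and FARSB did not, and the difference between the subunits was not tested.

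WARS, the tryptophan enzyme that interferon is known to induce, had the lowest log2FC of the cytosolic genes. It was at 62.2 and 78.8 scaled RPKM in the NC libraries and at 58.7 and 45.9 in the si-circZFR libraries (log2FC -0.43, SE 0.21, limma FDR 0.279), and NC 1 and si-circZFR 1 differed little. GARS, whose gene also makes the mitochondrial glycine enzyme, was at 46.1 and 46.3 against 38.6 and 33.9 (log2FC -0.34, SE 0.17, limma FDR 0.272). YARS, for tyrosine, had -0.32, TARS, for threonine, -0.23, SARS, for serine, -0.16, CARS, for cysteine, -0.15 and NARS, for asparagine, -0.12. Leaving out each library in turn moved TARS between -0.42 and -0.04, SARS between -0.28 and -0.01, CARS between -0.25 and -0.05 and NARS between -0.19 and -0.02. SARS was at 28.3 and 32.6 scaled RPKM in the NC libraries and at 29.9 and 24.6 in the si-circZFR libraries, with overlap (SE 0.18, limma FDR 0.638). AARS, for alanine, had 0.12 and VARS, for valine, 0.14.

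HARS went the other way and was the lowest cytosolic gene in level. It was at 19.8 and 19.7 scaled RPKM in the NC libraries and at 24.9 and 27.8 in the si-circZFR libraries, 133.5% of the NC mean (log2FC 0.40, SE 0.16, limma FDR 0.209). Without any 1 library its log2FC stayed between 0.33 and 0.49. Of its exon bases, 8.5% are shared with other genes, most of them with WDR55. Larger shares among the cytosolic genes were 13.3% for MARS and 10.6% for WARS. Strand use in the counting is not given in the sources used here, so reads of overlapping genes cannot be told apart.

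By catalytic class, the cytosolic class I genes (the class of the methionine, isoleucine and tryptophan enzymes, among others) had a median log2FC of -0.23 and the class II genes (histidine, phenylalanine and glycine, among others) one of -0.14. The 11 cytosolic genes often given as ATF4 targets had a median of -0.23, with 10 below 0, and the groups separated downward in 6 and upward in 0. The other 9 had a median of -0.11, with 6 below 0, and the groups separated downward in 4 and upward in 2. Over all genes these shares were 28.1% and 27.8%. The 7 cytosolic genes with TGATGNAA in the window, shown above, ranged from -0.41 (MARS) to 0.12 (AARS) with a median of -0.23. All 7 are also among the 11 genes often given as ATF4 targets, so these 2 medians are not separate observations. The 9 with a window and no match ranged from -0.43 to 0.40 with a median of -0.11. The ranges of these sublists overlap, and the differences between them were not tested.

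The mitochondrial genes had no common direction. Their median log2FC was 0.03, with 8 genes above 0 and 8 below. Both si-circZFR libraries were above both NC libraries for 5 genes (AARS2, HARS2, IARS2, LARS2 and TARS2) and below for 6 (CARS2, FARS2, MARS2, RARS2, SARS2 and WARS2), and the groups overlapped for the other 5. Over all genes the shares were 27.8% above and 28.1% below, so these counts are near the background. The spread within the list was wider than among the cytosolic genes, from -0.59 for MARS2 to 0.61 for HARS2.

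MARS2, the mitochondrial methionine enzyme, had the smallest p of the 36 genes. It was at 6.12 and 5.47 scaled RPKM in the NC libraries and at 3.59 and 3.45 in the si-circZFR libraries, 60.7% of the NC mean (log2FC -0.59, SE 0.18, limma FDR 0.126). These values rest on 222, 193, 128 and 131 reads. No exon base of MARS2 is shared with another gene, and without any 1 library its log2FC stayed between -0.66 and -0.52.

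WARS2, the tryptophan enzyme and the lowest gene of the list in level, was at 2.65 and 3.06 scaled RPKM in the NC libraries and at 1.65 and 1.80 in the si-circZFR libraries (log2FC -0.50, SE 0.17, limma FDR 0.154). SARS2, for serine, was at 29.6 and 28.1 against 21.6 and 19.8 (log2FC -0.46, SE 0.16, limma FDR 0.161). Of the SARS2 exon bases 48.2% are shared with another annotated gene. FARS2, a single-chain phenylalanine enzyme, was at 8.37 and 9.40 against 6.80 and 6.12 (log2FC -0.41, SE 0.18, limma FDR 0.236). All 3 genes had both si-circZFR libraries below both NC libraries, and none passed.

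HARS2, the gene that shares its promoter with HARS, had the highest log2FC of the 36. It was at 13.9 and 15.9 scaled RPKM in the NC libraries and at 19.7 and 27.4 in the si-circZFR libraries, 157.8% of the NC mean (log2FC 0.61, SE 0.20, limma FDR 0.151). The si-circZFR libraries differed, and the log2FC was 0.39 without si-circZFR 2 and 0.85 without si-circZFR 1. HARS and HARS2 were thus the highest of their own lists, each with both si-circZFR libraries above both NC libraries. Their canonical transcripts share 0 stretches of 25 bases, as did those of every other amino acid pair. That comparison was made on the transcript strand only and does not cover exons that overlap on opposite strands. Of the HARS2 exon bases, 7.0% are shared with other genes, most of them with ZMAT2.

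IARS2, for isoleucine, was the most abundant mitochondrial gene. It was at 38.9 and 42.0 scaled RPKM in the NC libraries and at 42.9 and 50.8 in the si-circZFR libraries, with NC 2 and si-circZFR 1 close together (log2FC 0.20, SE 0.18, limma FDR 0.526). AARS2, for alanine, had a log2FC of 0.38 at a level of 3.09 scaled RPKM, TARS2, for threonine, 0.32, PARS2, for proline, 0.19, LARS2, for leucine, 0.16, VARS2, for valine, 0.14 and EARS2, for glutamate, 0.11. For VARS2, 63.0% of the exon bases are shared with another annotated gene.

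The remaining mitochondrial genes were close to 0 or uneven between libraries. CARS2, for cysteine, had a log2FC of -0.05, NARS2, for asparagine, -0.12 and RARS2, for arginine, -0.21. YARS2, for tyrosine, was at 8.35, 8.26 and 8.37 scaled RPKM in NC 1, NC 2 and si-circZFR 1 and at 4.97 in si-circZFR 2, so that its log2FC of -0.31 came from 1 library and was 0.02 without it. Of its exon bases 18.1% are shared with another annotated gene. By class, the mitochondrial class I genes had a median of -0.05 and the class II genes one of 0.20.

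The cytosolic and the mitochondrial enzyme for the same amino acid could be compared in 17 pairs, in which EPRS and FARS2 appear more than once. The log2FC had the same sign in 12 pairs, both below 0 in 9 and both above 0 in AARS/AARS2, HARS/HARS2 and VARS/VARS2. The signs were opposite for EPRS with EARS2 and with PARS2, and for IARS/IARS2, LARS/LARS2 and TARS/TARS2, with the cytosolic enzyme lower in each. Across the 17 pairs Pearson's r was 0.678 and Spearman's rho 0.574. These are descriptions across genes, whose values come from the same 4 libraries.

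**Figure D3:**
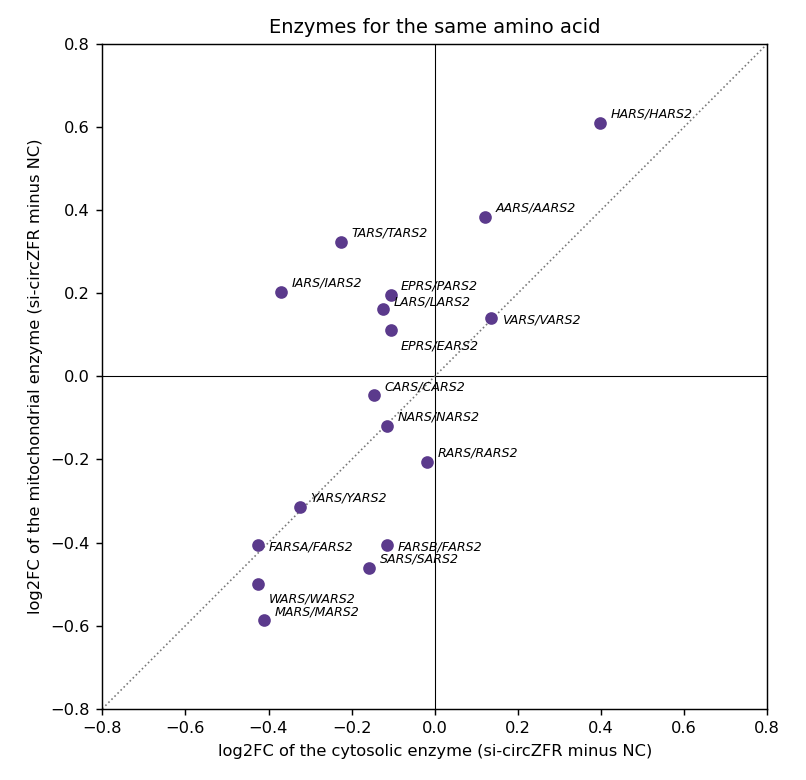
Log2FC of the cytosolic enzyme (horizontal axis) and of the mitochondrial enzyme (vertical axis) for the same amino acid, both as si-circZFR minus NC, with 1 point a pair and equal values on the dotted line. HARS/HARS2 lies at the upper right (0.40 and 0.61), MARS/MARS2 at the lower left (-0.41 and -0.59) and IARS/IARS2 at the upper left (-0.37 and 0.20).

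The level of the cytosolic enzyme over that of its mitochondrial counterpart ranged from a mean ratio of 1.19 for SARS/SARS2 to 27.6 for WARS/WARS2, with a median of 5.42. HARS/HARS2, at 1.23, was nearly even. The ratio within a library needs no scaling. For isoleucine it was 2.32 and 2.52 in the NC libraries and 1.77 and 1.48 in the si-circZFR libraries, or 2.42 ± 0.14 against 1.62 ± 0.21 (SD, n = 2 each), without overlap. For leucine it was 4.67 and 4.23 against 3.71 and 3.42, also without overlap. The serine ratio went the other way, from 0.956 and 1.16 in NC to 1.39 and 1.24 in si-circZFR.

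Methionine likewise had a higher ratio in si-circZFR, 9.45 and 11.4 in the NC libraries against 12.9 and 12.6, and the phenylalanine alpha subunit kept an almost constant one, 5.93 and 5.87 against 5.98 and 6.03. The ratio was lower in both si-circZFR libraries for 6 pairs, higher in both for 4 and overlapped for 7. The same count over other pairs of genes was not made, and no test was run on the ratios.

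**Figure D4:**
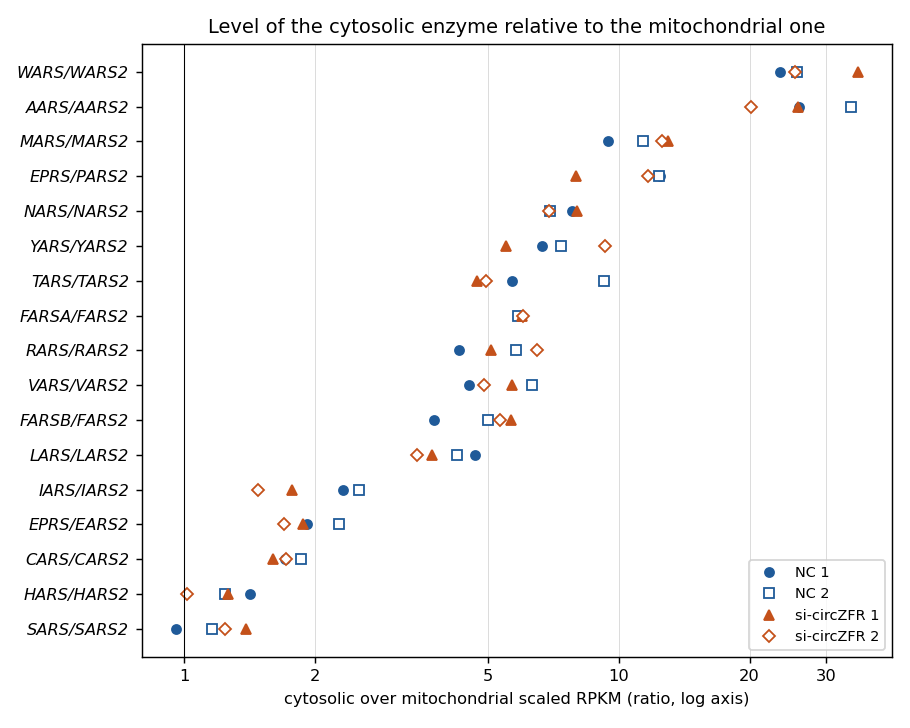
Level of the cytosolic enzyme divided by that of the mitochondrial enzyme for the same amino acid (ratio of scaled RPKM, log axis) in each of the 4 libraries, ordered by mean ratio, with a vertical line at equal levels. IARS/IARS2 shows both si-circZFR libraries (1.77 and 1.48) below both NC libraries (2.32 and 2.52), and SARS/SARS2 shows both above.

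Among 14 partners of the synthetases in tRNA charging, none passed the test by limma, and the median log2FC was -0.07. AIMP2, EEF1E1 and PSTK, all lower, had an unadjusted p under 0.05 (limma). These 3 of 14 are a share close to the 22.5% of all genes, and PSTK had only 15 to 29 reads a library. The lowest 2 partners were scaffold proteins of the multisynthetase complex. AIMP2 was at 39.1 and 41.5 scaled RPKM in the NC libraries and at 27.0 and 25.3 in the si-circZFR libraries (log2FC -0.60, SE 0.16, limma FDR 0.103), and EEF1E1 was at 7.62 and 9.20 against 5.85 and 4.97 (log2FC -0.55, limma FDR 0.158). AIMP1, the third scaffold protein, had a log2FC of -0.02. XPOT, which exports tRNAs from the nucleus, had -0.32, and QRSL1, a subunit of the amidotransferase that makes mitochondrial glutaminyl-tRNA, had -0.43. GATC and PET112, also subunits of that amidotransferase, had 0.06 and -0.08. Of the 14 partners, 9 were below 0 and 5 above. The groups separated downward in 6 and upward in 3 (TARSL2, TRNT1 and SEPSECS), beside 28.1% and 27.8% of all genes.

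Of 17 genes of the amino acid response, 1 passed. TRIB3, a pseudokinase induced by ATF4 that also restrains it, rose from 26.4 and 31.6 scaled RPKM to 63.1 and 74.2 (log2FC 1.21, SE 0.18, limma FDR 0.0459). This call was lost without NC 2 (limma FDR 0.1), without si-circZFR 1 (0.101), without si-circZFR 2 (0.278), with the RPKM filter (0.076), with no filter (0.243) and with a pseudocount of 0.1 (0.0512). ATF4 itself was at 128 and 163 scaled RPKM in the NC libraries and at 120 and 137 in the si-circZFR libraries (log2FC -0.17, limma FDR 0.683). At an unadjusted p under 0.05 there were 8 of the 17, where 22.5% of all genes were. The 4 higher genes were TRIB3, VLDLR (log2FC 0.52), DDIT4 (0.46) and CEBPB (0.43). The 4 lower genes were SHMT2 (log2FC -0.96, limma FDR 0.0579), CHAC1, SESN2 and ASNS, the asparagine synthetase (log2FC -0.63, limma FDR 0.105). The median log2FC of the 17 was -0.21, beside -0.23 for the synthetase genes often given as ATF4 targets.

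**Figure D5:**
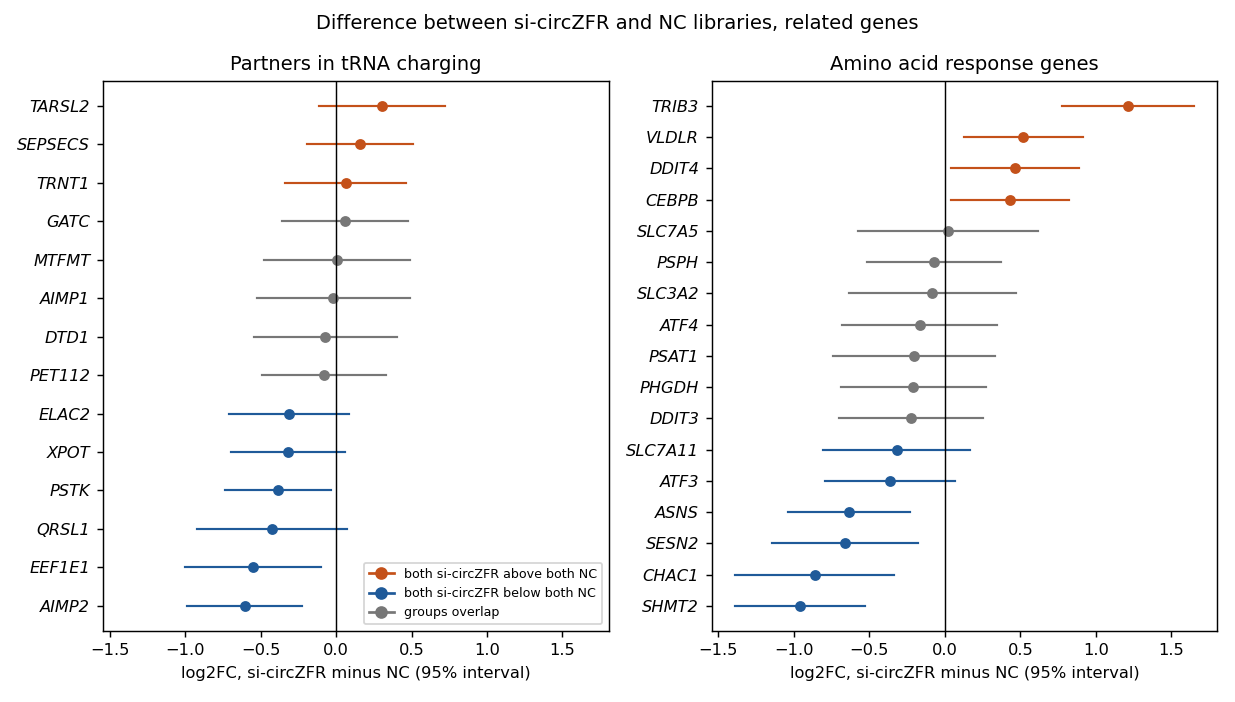
Log2FC (si-circZFR minus NC, with its 95% interval from limma) of 14 partners of the synthetases in tRNA charging (left) and of 17 amino acid response genes (right), coloured by whether the 2 groups of libraries overlap. AIMP2 and EEF1E1 are the lowest partners (-0.60 and -0.55), and TRIB3 (1.21) is the gene that passed the test.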

How the data were processed

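Libraries from the 2 NC and 2 si-circZFR samples were sequenced on the Ion Proton, and the authors then removed adaptors and low-quality reads. The article gives alignment to hg38, the submitters' processing notes give GRCh37, and the aligner, annotation and strand setting are not given in the sources used here. The authors deposited RPKM values per gene, so their batch removal (SVA) and count test (edgeR) could not be repeated as stated.

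Members and gene lists were chosen with earlier results of these data known. The length at which a gene's RPKM values are whole numbers of reads (tolerance 0.001) gave reads for 24284 of 24289 genes above 0 (99.98%). That share is a loose check, since many lengths were tried for each gene. With the library totals taken as known, 975 of 1000 genes with known reads came back exactly. Small RNA genes of known length were whole in 96.4% to 96.9% of cases. The same genes had been used to find the library totals, so this share is not a separate check of them. The next best total came near the chosen one (327 against 347 matches in NC 1, 236 against 269 in NC 2).

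Genes with recovered CPM above 1 in at least 2 libraries were tested. Libraries were brought to 1 scale with trimmed means of log ratios (30% and 5% trimmed, factors 0.982, 0.892, 1.02 and 1.11 for NC 1, NC 2, si-circZFR 1 and si-circZFR 2). Log2(scaled RPKM + 1) was fitted with limma 3.58.1 (R 4.3.3, trended prior, median prior degrees of freedom 4.89, two-sided, Benjamini-Hochberg), which was also tested on simulated data. All 36 members could be named. Values in full were to be given for members called (none were), the 4 with the smallest p and the highest and lowest level in each list, and their amino acid partners. ZFR and the genes of the lists (complex scaffold and other partners, amino acid response, cell markers) could be named too. Protein sequences were not analysed here. Some listed values are not reported here. Alternatives covered scaling, filter, pseudocount, length, replicate block, limma-voom and each library left out.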

Additional observations from a re-analysis of the deposited data

How the results depend on the processing

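The 36 synthetase genes gave 0 calls under every setting tried, at FDR alone too, and the smallest FDR among them ranged from 0.061 (HARS2, replicate block with length correction) to 0.618 (WARS2, without si-circZFR 2). The cytosolic minus mitochondrial difference of medians (-0.185) stayed below 0, from -0.259 without NC 1 to -0.0608 without NC 2. Leaving out each library in turn moved the cytosolic median between -0.256 and -0.0833, the mitochondrial median between -0.0225 and 0.0357 and the count of all genes called between 0 and 976. Without scaling the cytosolic median was 0.0328 and the mitochondrial 0.213 (0.0678 relative to all genes), and with a correction for gene length the mitochondrial median was -0.0305, with or without the replicate block. The count of all genes called (175) was 8 with an RPKM filter, 0 with no filter (limma, 3638 at an unadjusted p under 0.05), 59 with a pseudocount of 0.1, 287 with the replicate block, 366 with the block and length correction and 368 by limma-voom. The causes were not tested. The share of calls that were higher was 34.9% (61 higher, 114 lower), 62.7% without scaling (153 and 91) and 57.9% with length correction (106 and 77). Replicate numbers are only shared numbers here (correlation of same-numbered deviations 0.085, 2 pairs).

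The sign turned under at least 1 setting in 13 of the 36 genes. Without scaling, CARS was at 0.0382, CARS2 at 0.134, EPRS at 0.0816, FARSB at 0.0726, LARS at 0.0588, NARS at 0.0729, NARS2 at 0.0503, RARS at 0.170 and SARS at 0.0275. RARS was at 0.0215 with length correction, with or without the replicate block. Over the fits without 1 library, AARS ranged from -0.0175 to 0.250, KARS from -0.0619 to 0.289, FARSB from -0.399 to 0.162, RARS from -0.192 to 0.145, VARS2 from -0.0358 to 0.308, NARS2 from -0.276 to 0.0598 and YARS2 from -0.628 to 0.0198. A group of 2 libraries whose other sample is left out is assumed to vary like the other group. The lowest gene had 55 to 101 reads a library.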
